A study of Rattus norvegicus with 12 samples.

Results

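The genes Spopl, Ro60, Lmbrd2, Bend4, Fam199x, Ptpn4 and Xpr1 were followed through every group of a study of magnetic stimulation, because their RNA was low in the stimulated libraries. They are 7 of the 30454 genes in the count table, and all 7 passed the filter on low counts that 13692 genes passed. They were picked by name from the values of stimulated against unstimulated libraries. That contrast is therefore given as a description, with no test.

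Bulk RNA sequencing covered 12 libraries of rat cells labelled PC12, a line derived from an adrenal chromaffin tumour. The cells of all 12 went through deprivation and reoxygenation (OGD/R), a culture model of interrupted blood supply. The OGDR group (4 libraries) had no other treatment, the MSCs group (4 libraries) also had mesenchymal stem cells, and the rTMS-MSCs group (4 libraries) had these cells and repetitive transcranial magnetic stimulation at 10 Hz. Sampling was at 48 h after treatment, per the series text, which counts 20 samples and names a microarray, although the labels describe sequencing. No library from cells without deprivation was analysed here. The labels do not tie the libraries of a group to separate cultures, so SDs and tests here cover the spread from library to library, which may be technical. The sources used here do not give the species of the stem cells or how they met the PC12 cells. In bulk RNA, fewer cells of a type and less RNA per cell cannot be told apart.

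Library totals lay between 18246250 and 20471838 counts in genes. The chromaffin label was borne out in part only. Of 14 chromaffin markers, 7 stayed under 1 CPM (counts scaled to library size) in every library, and Ddc and Hand2 had no count. Mean Th, which encodes tyrosine hydroxylase, was 0.151 CPM in OGDR, while Sox10, a regulator of Schwann and other glial cells, was at 363 CPM.

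The 7 genes share no known pathway. Spopl, a relative of Spop, is an adaptor that brings substrates to the CUL3 ubiquitin ligase, which marks proteins for degradation. Ro60 is a ring-shaped protein that binds Y RNAs and misfolded small RNAs and is a well known autoantigen. Lmbrd2 is a membrane protein with several passes that has been linked to beta-adrenoceptor signalling. Xpr1 exports inorganic phosphate from the cell, responds to inositol pyrophosphates, and also serves as a receptor for some retroviruses. Ptpn4 is a tyrosine phosphatase with FERM and PDZ domains. Bend4 carries a BEN domain, a fold found in proteins that bind DNA and chromatin, and the role of Fam199x is not well known.

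Since the genes were low together, their promoters are shown. RefSeq (build GRCr8; the counts use mRatBN7.2) gave an entry for 4 of the 7. The 250 bases before each gene's start are printed 5′ to 3′ on the strand of the gene, with capitals for the GC box (GGGCGG on either strand), an element that Sp factors bind.
Ro60 (chr13:58070829-58071078, minus strand): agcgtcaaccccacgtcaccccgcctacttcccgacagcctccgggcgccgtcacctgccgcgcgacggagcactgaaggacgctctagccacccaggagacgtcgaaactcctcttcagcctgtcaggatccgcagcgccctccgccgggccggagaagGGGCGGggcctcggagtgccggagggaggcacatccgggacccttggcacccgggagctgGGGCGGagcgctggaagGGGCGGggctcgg
Xpr1 (chr13:70136165-70136414, minus strand): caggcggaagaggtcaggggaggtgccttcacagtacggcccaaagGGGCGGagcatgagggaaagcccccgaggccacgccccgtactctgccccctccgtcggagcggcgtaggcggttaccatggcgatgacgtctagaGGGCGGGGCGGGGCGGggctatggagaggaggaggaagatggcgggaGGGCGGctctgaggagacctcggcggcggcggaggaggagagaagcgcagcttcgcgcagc
Bend4 (chr14:41106712-41106961, plus strand): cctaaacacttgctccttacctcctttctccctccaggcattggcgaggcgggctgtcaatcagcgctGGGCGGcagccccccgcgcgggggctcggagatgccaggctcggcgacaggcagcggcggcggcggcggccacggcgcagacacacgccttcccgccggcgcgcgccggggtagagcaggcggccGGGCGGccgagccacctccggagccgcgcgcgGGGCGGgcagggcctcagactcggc
Lmbrd2 (chr2:59916486-59916735, plus strand): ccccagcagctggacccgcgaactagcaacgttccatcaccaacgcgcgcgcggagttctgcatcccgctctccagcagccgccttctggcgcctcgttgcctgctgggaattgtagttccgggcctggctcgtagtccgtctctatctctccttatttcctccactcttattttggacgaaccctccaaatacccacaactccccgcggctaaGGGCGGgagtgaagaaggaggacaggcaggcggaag

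All 4 windows held the GC box, with 3 sites in Ro60, 5 in Xpr1, of which 3 overlap, 3 in Bend4 and 1 in Lmbrd2. The element is common, in 58.5% of the 9773 windows of tested genes and 32.4% of all 27457 windows. G and C made up 72.4% of the Ro60 window, 70.0% of Xpr1, 76.4% of Bend4 and 60.4% of Lmbrd2, beside a median of 60.0% over tested genes. The CCAAT box (CCAAT, in 36.2% of windows of tested genes) was found in Bend4 alone. No window of the 4 held the cyclic AMP element (TGACGTCA, 2.98%), AP-1 (TGANTCA, 4.44%), the E-box (CACGTG, 8.17%), the TATA box (TATAAA, 6.46%), ETS (CCGGAAG, 15.5%) or EGR (GCGTGGGCG, 0.962%). The motifs named NRF1 (9.34%), glucocorticoid element (0.215%) and YY1 (0.532%) had no match either. Both strands were searched, and a base may belong to more than one motif.

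Of the 7 genes, the ubiquitin ligase adaptor and the Y RNA binding gene differed most. Spopl stood at 6.67, 6.26, 11.04 and 6.44 CPM in OGDR, at 8.26, 6.57, 11.8 and 5.58 CPM in MSCs, and at 2.44, 2.32, 1.01 and 3.56 CPM in rTMS-MSCs, in the order of replicates 1 to 4. The 4 stimulated libraries lay below all 8 others, and replicate 3 was the highest library in OGDR and MSCs and the lowest in rTMS-MSCs. In the edgeR fit of all 12 libraries its log2 fold change of rTMS-MSCs against MSCs was -1.78 ± 0.290 (standard error), which is 3.43-fold lower. Ro60 stood at 7.50, 8.23, 11.1 and 8.47 CPM in OGDR, at 9.06, 7.29, 17.4 and 7.33 CPM in MSCs, and at 3.54, 2.69, 2.01 and 3.71 CPM in rTMS-MSCs. Its stimulated libraries again overlapped neither other group, and MSCs 3 stood far above the rest of MSCs. Its log2 fold change against MSCs was -1.77 ± 0.258, or 3.42-fold lower.

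Lmbrd2 and Xpr1, which lie in membranes, differed by unlike amounts. Lmbrd2 stood at 6.29, 4.24, 7.14 and 6.23 CPM in OGDR, at 6.65, 4.31, 10.5 and 6.22 CPM in MSCs, and at 2.69, 2.00, 1.33 and 3.61 CPM in rTMS-MSCs. Its highest stimulated library came near the lowest OGDR and MSCs libraries without reaching them, and its log2 fold change against MSCs was -1.51 ± 0.277 (2.85-fold lower). Xpr1, the phosphate exporter, stood at 27.7, 32.8, 33.5 and 33.4 CPM in OGDR, at 34.4, 24.3, 37.3 and 27.4 CPM in MSCs, and at 18.8, 16.1, 13.5 and 20.3 CPM in rTMS-MSCs. The stimulated libraries were below all others, yet the log2 fold change against MSCs was the smallest of the 7 at -0.84 ± 0.134 (1.80-fold lower). The phosphatase gene Ptpn4 stood at 5.41, 5.67, 7.52 and 4.47 CPM in OGDR, at 7.15, 6.47, 8.66 and 5.95 CPM in MSCs, and at 2.69, 3.16, 2.23 and 2.36 CPM in rTMS-MSCs. The 4 stimulated libraries were close together and below the rest, with a log2 fold change against MSCs of -1.43 ± 0.192 (2.70-fold lower).

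Bend4, the BEN domain gene, stood at 6.43, 7.84, 10.2 and 7.58 CPM in OGDR, at 11.7, 10.5, 14.5 and 9.56 CPM in MSCs, and at 3.88, 4.58, 3.13 and 4.86 CPM in rTMS-MSCs. Of the MSCs libraries only replicate 4 lay within the OGDR range, and the stimulated libraries were below both groups, at a log2 fold change of -1.49 ± 0.176 against MSCs (2.80-fold lower). Fam199x stood at 5.21, 4.53, 5.26 and 4.83 CPM in OGDR, at 3.93, 4.11, 8.88 and 3.72 CPM in MSCs, and at 2.09, 1.90, 0.583 and 2.81 CPM in rTMS-MSCs. Its OGDR libraries were close together, MSCs 3 stood above every other library, and rTMS-MSCs 3, with 11 counts, was the lowest. The log2 fold change against MSCs was -1.47 ± 0.325 (2.77-fold lower), with the widest error of the 7.

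**Figure D1:**
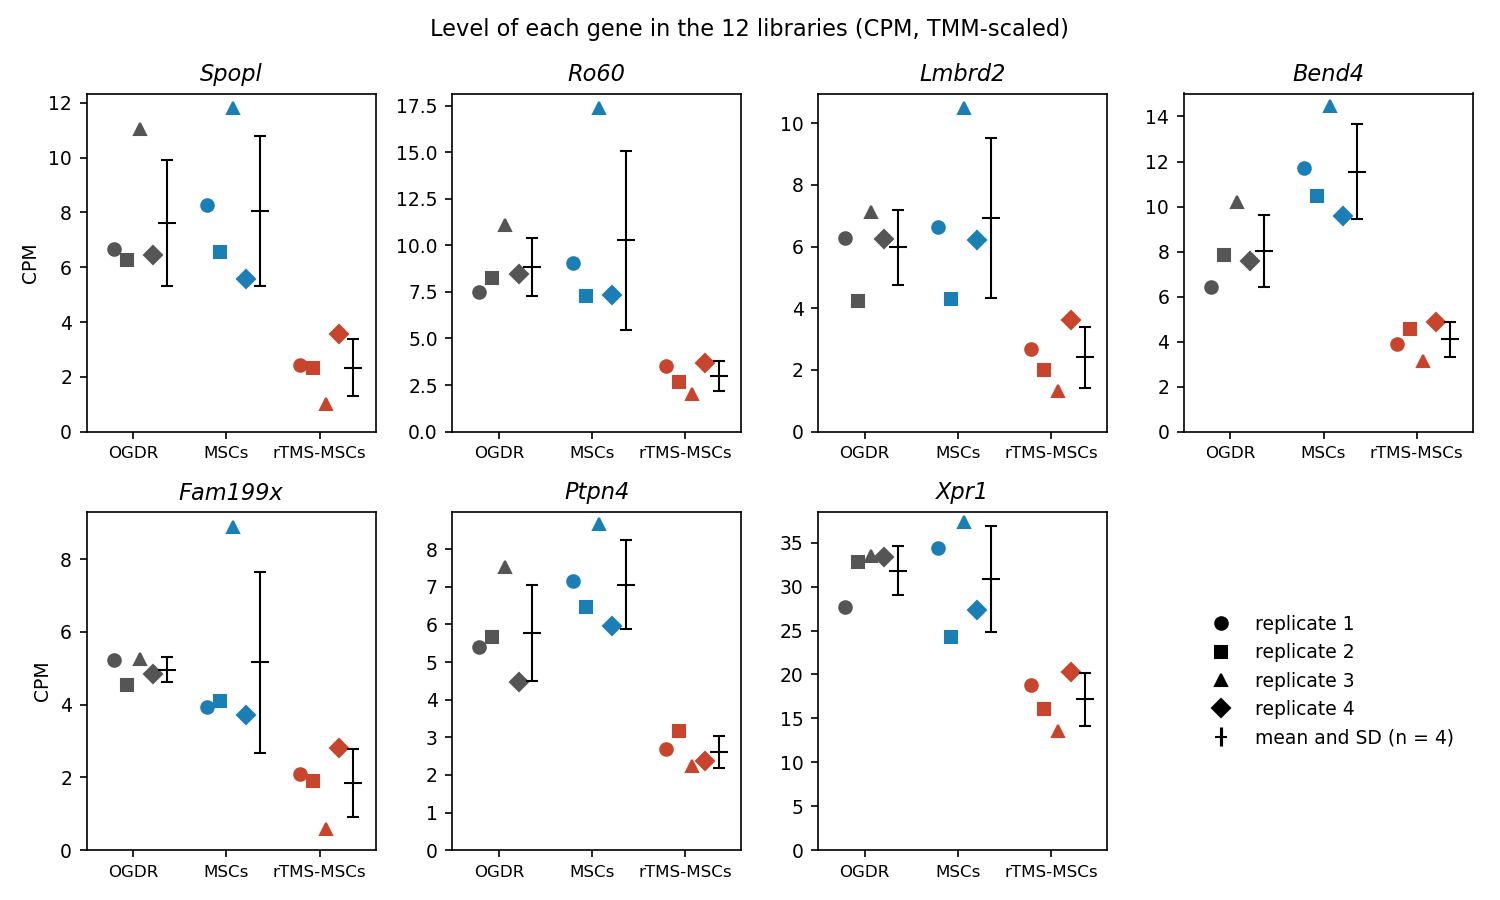
Level of each gene in CPM (vertical axis, from 0) in the 12 libraries by group, with a marker shape for each replicate number and the mean and SD of 4 libraries in black. In every panel the 4 rTMS-MSCs libraries lie below all OGDR and MSCs libraries, and replicate 3 (triangle) is the lowest of rTMS-MSCs and the highest of MSCs.

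Genes were also ranked by their fall against MSCs. The ranking took the 1061 falling genes with a symbol, a mean of at least 5 CPM in MSCs, an adjusted p under 0.05 and no overlap. It uses the values that the 7 were picked from, so their high ranks are a description. Ranks 1, 2, 5, 6, 7 and 8 were Spopl, Ro60, Lmbrd2, Bend4, Fam199x and Ptpn4. Inhba and Atp7a held ranks 3 and 4, Clcn5 followed just outside at -1.39 beside -1.43 for Ptpn4 just inside, and Xpr1 held rank 85. All 7 were called and none overlapped, which their choice fixes. By the edgeR quasi-likelihood test 18.1% of tested genes were called in this contrast, 10.9% lower and 7.14% higher, and 10.8% were lower without overlap. The median log2 fold change was -1.49 over the 7 and 0.02 over all tested genes.

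The estimates for stem cells alone were small for most of the 7. The log2 fold change of MSCs against OGDR was 0.08 ± 0.259 for Spopl, 0.22 ± 0.233 for Ro60, 0.21 ± 0.254 for Lmbrd2, 0.05 ± 0.295 for Fam199x and -0.05 ± 0.129 for Xpr1, each smaller than its error. Ptpn4 was at 0.29 ± 0.178 and Bend4, the furthest up, at 0.53 ± 0.166. All 7 overlapped between these groups, while 13.2% of tested genes were higher and 11.5% lower without overlap. One library weighed on these estimates, whose median went from 0.21 to -0.15 without MSCs 3.

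Against OGDR, the rTMS-MSCs group was lower without overlap for all 7, as were 14.8% of tested genes. The log2 fold change was -1.70 ± 0.290 for Spopl, -1.56 ± 0.259 for Ro60, -1.42 ± 0.324 for Fam199x and -1.30 ± 0.278 for Lmbrd2. It was -1.14 ± 0.193 for Ptpn4, -0.96 ± 0.179 for Bend4 and -0.89 ± 0.133 for Xpr1. Both contrasts with OGDR share libraries with the one that chose the genes, so they are given with no test.

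Set against OGDR as the mean of both stem cell groups, all 7 genes had estimates below 0. The log2 difference was -0.81 ± 0.231 for Spopl, -0.68 ± 0.262 for Fam199x, -0.67 ± 0.207 for Ro60 and -0.55 ± 0.226 for Lmbrd2. It was -0.47 ± 0.112 for Xpr1, -0.43 ± 0.158 for Ptpn4 and -0.22 ± 0.148 for Bend4. Of the 8 stem cell libraries, 7 lay below the lowest OGDR library for Fam199x, 6 for Xpr1, 6 for Ro60 and 5 for Spopl. For Ptpn4, Lmbrd2 and Bend4 it was 4 each, and the 4 stimulated ones were among them for every gene. No such count over all tested genes is given, so nothing is read from these. These averages join an MSCs group near or above OGDR with the stimulated libraries whose low values chose the genes, so no p-value is given. In the edgeR fit 4 of the 7 were past the threshold, beside 12.7% of tested genes called lower and 14.5% called higher, and nothing is read from that count. It was 1 without OGDR 3 and 6 without MSCs 3, where 1281 of 13841 and 1805 of 13847 tested genes were called lower.

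**Figure D2:**
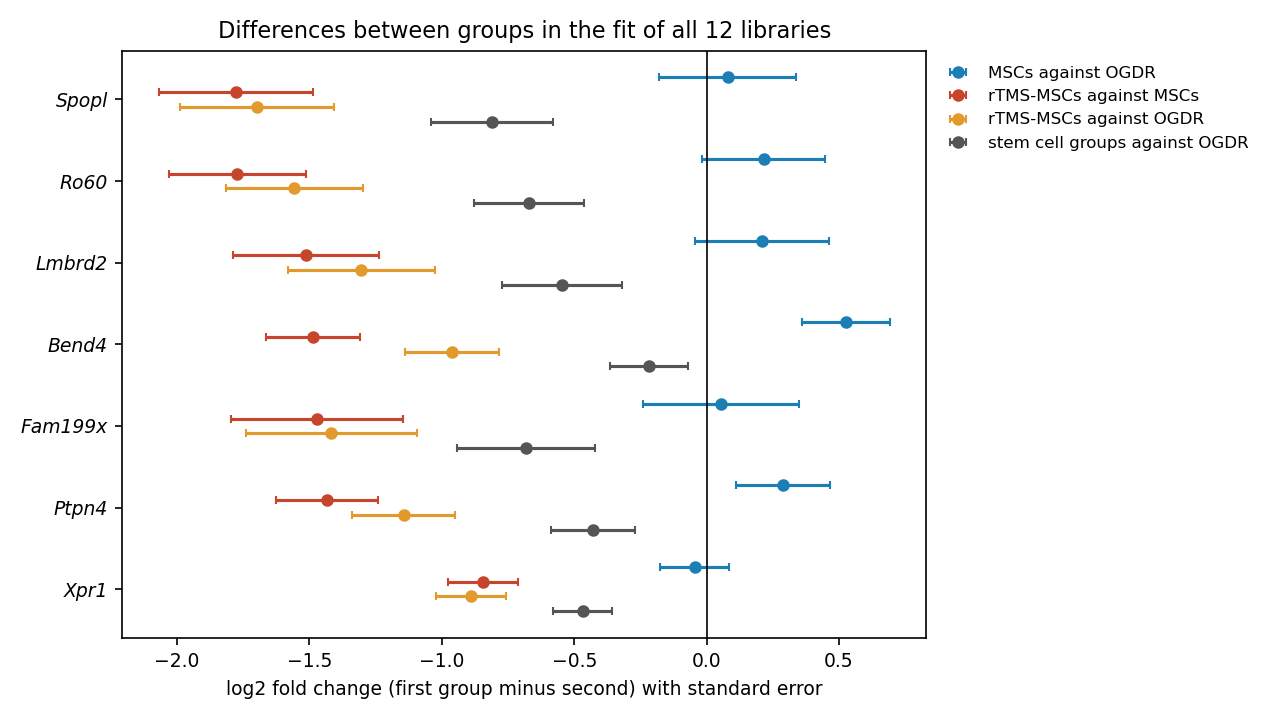
Log2 fold change of each gene (horizontal axis, first group minus second, bars for the standard error) in 4 contrasts of the fit of 12 libraries. MSCs against OGDR lies near 0 for most genes and at 0.53 for Bend4, both contrasts of rTMS-MSCs lie between -1.78 and -0.84, and the stem cell groups together lie between -0.81 and -0.22.

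The genes also deviated together within groups. Their choice used the size of the fall and the lack of overlap, and values of single libraries enter both. These correlations are therefore not independent of the choice, and none for pairs of other genes is given beside them. After each group's mean log2 CPM was taken off, all 21 pairs of the 7 correlated positively over 12 libraries, with a median Pearson r of 0.80. Spopl and Fam199x were closest (0.90), and Lmbrd2 and Ptpn4 least alike (0.36). The points share libraries, depth and composition. Without replicate 3 of each group (9 libraries) 15 pairs stayed positive, the median was 0.49, and the range ran from -0.60 for Lmbrd2 and Ptpn4 to 0.90 for Ro60 and Xpr1. Within rTMS-MSCs the SD of log2 CPM was 0.91 for Fam199x, 0.73 for Spopl, 0.59 for Lmbrd2 and 0.22 for Ptpn4, beside a median of 0.16 over tested genes.

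Replicate 3 lay at one end of every group. It was the highest library for 7 of 7 genes in OGDR and in MSCs and the lowest for 7 of 7 in rTMS-MSCs. Averaged over the genes, it deviated from its group mean by 0.30 in OGDR, 0.56 in MSCs and -0.64 in rTMS-MSCs on the log2 scale. Within groups, other properties of the libraries moved with this. Ribosomal protein transcripts took 3.49% of counts in rTMS-MSCs 3 and 2.76 to 3.00% in the rest of that group. They took 2.44 to 2.69% in MSCs, where MSCs 3 was lowest, and 2.88 to 3.12% in OGDR, where OGDR 3 was lowest. Between groups, the means of OGDR (2.98%) and rTMS-MSCs (3.02%) were close. The longest 10% of genes by span minus the shortest 10%, as a mean log2 difference, stood at -0.50 in rTMS-MSCs 3 and -0.19 to -0.01 in the rest of rTMS-MSCs. It stood at 0.28 in MSCs 3 and 0.03 to 0.16 in the rest of MSCs, and at 0.18 in OGDR 3 and -0.02 to 0.11 in the rest of OGDR. Their part in the difference of the 7 genes was not tested.

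**Figure D3:**
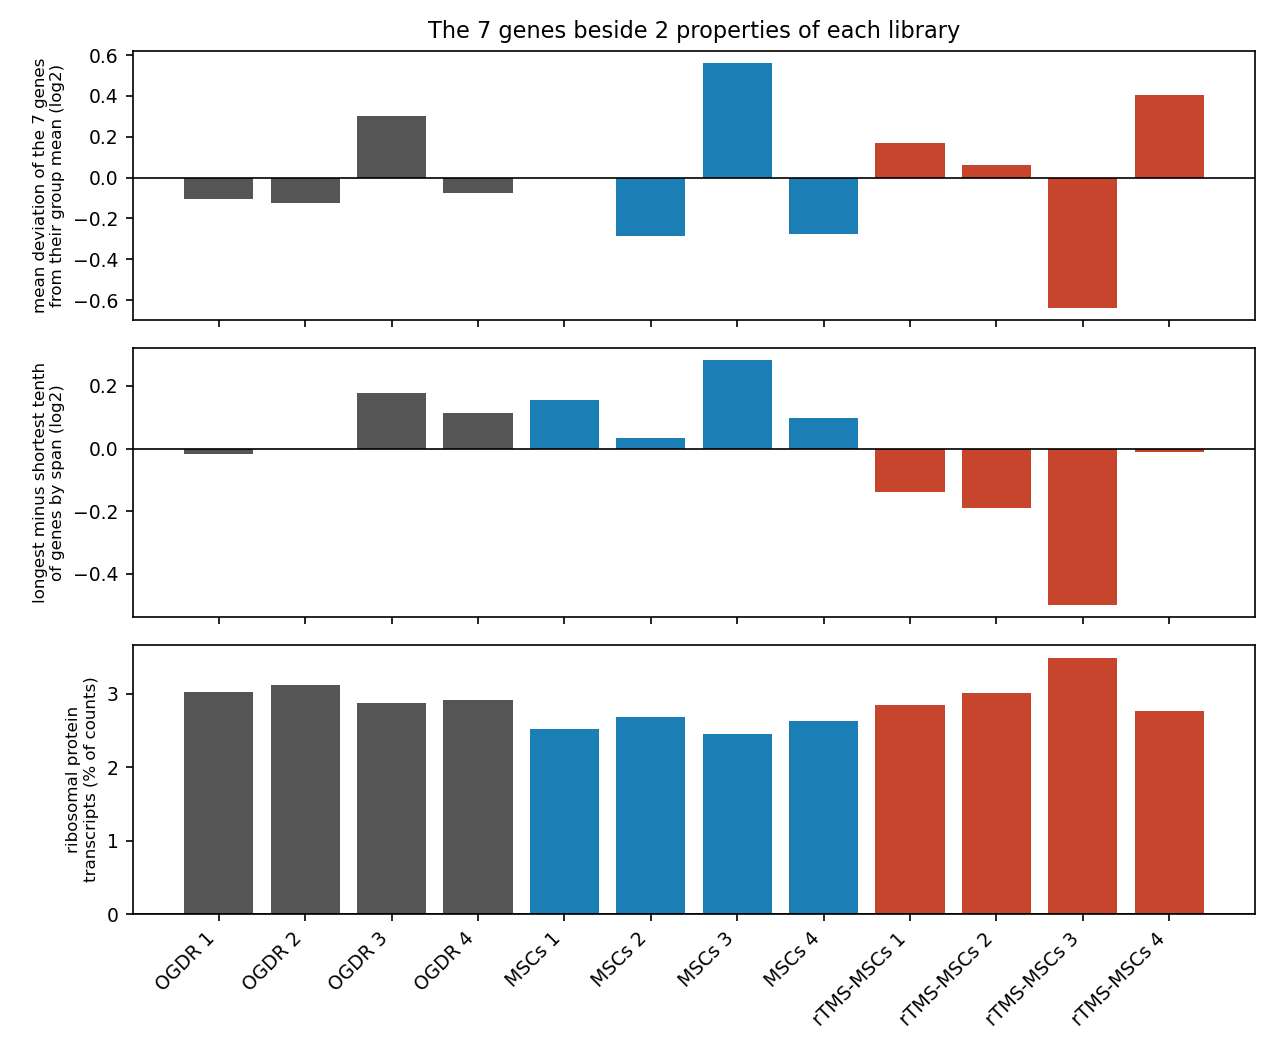
For each of the 12 libraries, the mean deviation of the 7 genes from their group mean (log2, top), the mean log2 difference between the longest and shortest 10% of genes by span (middle) and the share of counts in ribosomal protein transcripts (%, bottom). Library rTMS-MSCs 3 is lowest in the top and middle panels and highest in the bottom one (3.49%), and MSCs 3 is the opposite (2.44%).

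Most of the 7 were longer than the median gene. Gene span, the distance from start to end of a gene with its introns, was matched for 88.5% of tested genes (RefSeq, GRCr8), with a median of 23534 bases. Ptpn4 spans 180150 bases, Xpr1 144733, Spopl 73810, Lmbrd2 62004, Bend4 36367 and Fam199x 35704, all above that median. Ro60, at 20991 bases, lies below it. Over 5 equal bins of tested genes by span, the median log2 fold change of rTMS-MSCs against MSCs went from 0.16 in the shortest to -0.16 in the longest.

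The difference from MSCs kept its direction for all 7 genes when libraries were left out, which the lack of overlap between these groups fixes. Only its size could change. Without MSCs 3 and rTMS-MSCs 3 together the log2 fold change was -1.29 ± 0.236 for Spopl, -1.25 ± 0.192 for Ro60, -1.04 ± 0.240 for Lmbrd2 and -1.25 ± 0.178 for Bend4. It was -1.25 ± 0.215 for Ptpn4, -0.64 ± 0.120 for Xpr1 and -0.79 ± 0.228 for Fam199x, and the median was -1.25. With a trend on gene span taken out of each library the median was -1.42, with Ro60 at -1.79 and Xpr1 at -0.67. The number of genes called over the whole table moved more. It was 2475 with all 12 libraries, 1006 without MSCs 3, 1313 without MSCs 1, 1480 without rTMS-MSCs 3 and 677 without both replicates 3.

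**Figure D4:**
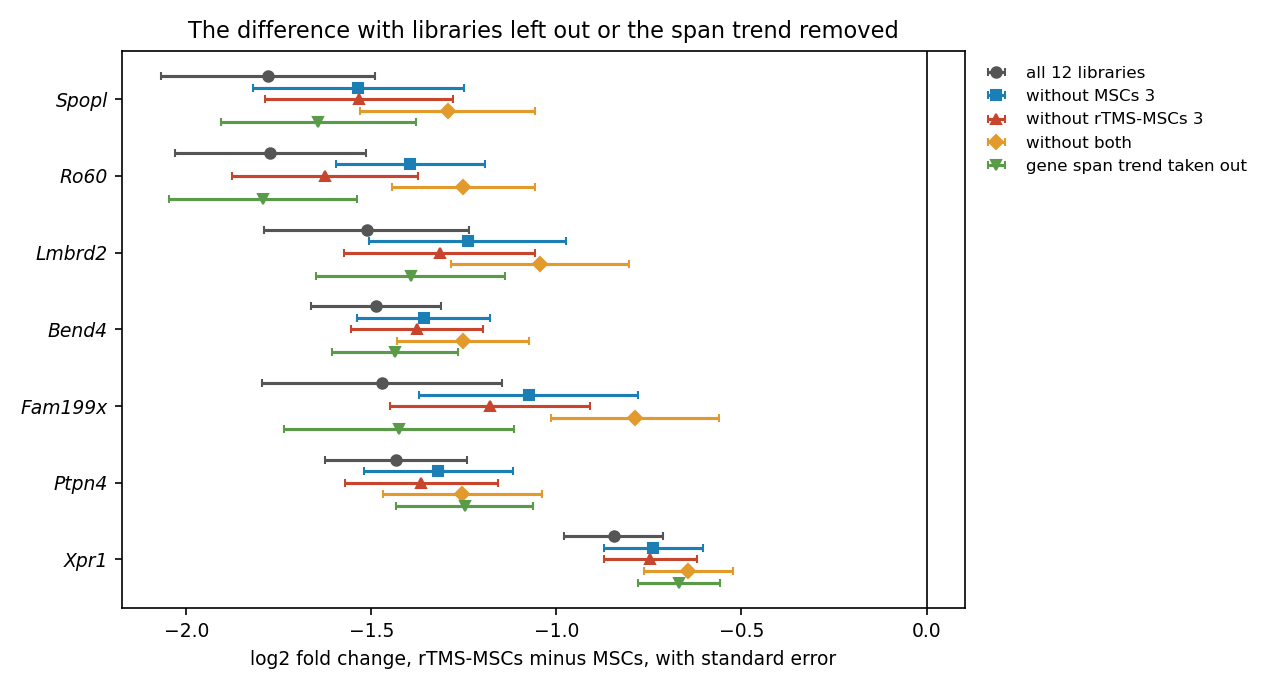
Log2 fold change of rTMS-MSCs against MSCs for each gene (horizontal axis, bars for the standard error) with all 12 libraries, without MSCs 3, without rTMS-MSCs 3, without both, and with the span trend taken out. All estimates stay below 0, which the lack of overlap between these groups fixes for libraries left out. Fam199x moves most without both libraries, from -1.47 to -0.79.

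Many genes followed the same course. Over the 12 libraries 465 of 13692 tested genes had a Pearson r above 0.9 with the mean standardised profile of the 7, and 119 an r below -0.9. The 7 themselves were not left out of these counts. The 5 most alike outside the set were Rest, a repressor of neuronal genes (r = 0.995), Igf2r, the mannose 6-phosphate receptor (0.987), the transcription factor Atf7 (0.986), the integrin chain Itgb8 (0.986) and the Mediator subunit Med14 (0.985). Rest averaged 20.3 ± 2.86 CPM in OGDR, 23.7 ± 6.41 CPM in MSCs and 9.82 ± 2.08 CPM in rTMS-MSCs (mean ± SD, n = 4). Itgb8 averaged 95.2 ± 12.7, 115 ± 38.9 and 47.1 ± 15.5 CPM in the same order. Being picked for likeness over shared libraries, these genes are a description only.

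Around the 7 genes, 6 lists of functional relatives held 112 tested genes. Of these, 23 fell in rTMS-MSCs against MSCs (20.5%, beside 10.9% of all tested genes) and 1 rose (0.893%, beside 7.14%). Both shares depended on the setting. With the span trend taken out, 14 list genes were called (12.5%, beside 13.5% of all tested genes), and 11 of them were lower (9.82%, beside 7.77%). Without MSCs 3, 9 were called (8.04%, beside 7.27%), all of them lower (5.23% of all tested genes were), and 10 without both replicates 3 (8.93%, beside 4.90%). In MSCs against OGDR 18 rose and 11 fell, beside 11.6% and 8.63% of all tested genes. In rTMS-MSCs against OGDR 10 rose and 26 fell, beside 16.2% and 16.2%. P-values for single list genes are from edgeR with Benjamini-Hochberg adjustment over all tested genes. MSCs against OGDR and rTMS-MSCs against MSCs share the MSCs libraries, and list genes were named mainly by p in the latter. A rise in MSCs and a fall with stimulation of the same gene are therefore not independent results.

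Among 29 tested genes of the CUL3 ligase and its adaptors, where Spopl belongs, 5 fell and none rose with stimulation (median -0.16). The adaptor Klhl11 went from 7.03 ± 2.16 CPM in MSCs to 3.42 ± 0.708 CPM in rTMS-MSCs, a fall of 1.04 ± 0.210 on the log2 scale (adjusted p = 0.00355). Rhobtb1, an adaptor with BTB domains, fell by 0.39 ± 0.0943 (adjusted p = 0.00923), lost with the span trend taken out (adjusted p = 0.128). Klhl42, another adaptor, fell by 0.56 ± 0.144 (adjusted p = 0.0121) and lost its call without MSCs 3 (adjusted p = 0.05004). Cul3, the scaffold, stood at 106 ± 5.48 and 107 ± 7.18 CPM (0.03 ± 0.0682, adjusted p = 0.826). The row named Spop held at most 12 counts in a library and was not tested, and reads shared between Spop and Spopl could not be told apart here.

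Of 22 small RNA partners related to Ro60, 2 fell and 1 rose with stimulation (median 0.03). Larp4, a La-related protein that binds poly(A), went from 47.6 ± 3.75 to 31.6 ± 6.14 CPM, a fall of 0.59 ± 0.119 (adjusted p = 0.00355). Larp1, which controls ribosomal protein mRNAs, fell by 0.25 ± 0.0623 (adjusted p = 0.0114), and the cold shock protein gene Ybx3 rose by 0.26 ± 0.0712 (adjusted p = 0.0161). Without MSCs 3 both lost their call, at adjusted p = 0.0654 and 0.0677. Larp1 also lost it with the span trend taken out. Ssb, the La protein, which binds Y RNAs as Ro60 does, stood at 103 ± 9.30 and 112 ± 8.23 CPM (0.13 ± 0.0677, adjusted p = 0.194).

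Of 24 genes of the LMBR1 family and of beta-adrenoceptor signalling, the setting of Lmbrd2, 6 fell and none rose with stimulation (median -0.10). Arrb1, an arrestin that uncouples receptors from G proteins, rose from 26.8 ± 4.40 CPM in OGDR to 47.8 ± 8.40 CPM in MSCs, by 0.83 ± 0.142 (adjusted p = 0.000191). It fell to 28.3 ± 5.69 CPM with stimulation, by 0.76 ± 0.142 (adjusted p = 0.00235). Prkar2a, a regulatory subunit of protein kinase A, fell by 0.70 ± 0.143 (adjusted p = 0.00366). The ubiquitin ligase gene Nedd4 fell by 0.27 ± 0.0667 (adjusted p = 0.0105). It lost its call without MSCs 3 (adjusted p = 0.0548) and with the span trend taken out. Lmbrd1, a lysosomal relative needed for vitamin B12 handling, did not pass (0.09 ± 0.0917, adjusted p = 0.506).

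Of 13 non-receptor tyrosine phosphatases related to Ptpn4, 6 fell and none rose with stimulation (median -0.19). Ptpn21, which also has a FERM domain, went from 51.7 ± 2.14 to 40.3 ± 0.825 CPM, a fall of 0.36 ± 0.0672 (adjusted p = 0.00228). Ptpn9 fell by 0.28 ± 0.0643 (adjusted p = 0.00710), lost with the span trend taken out (adjusted p = 0.145). Ptpn14, with a FERM domain too, fell by 0.37 ± 0.0973 (adjusted p = 0.0139). Its call was lost without MSCs 3 (adjusted p = 0.0759) and with the span trend taken out. Ptpn3, the closest relative of Ptpn4, stood at 7.56 ± 1.09 and 5.47 ± 0.849 CPM and did not pass (-0.47 ± 0.162, adjusted p = 0.0506).

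Of 19 genes of phosphate transport and inositol pyrophosphates, the setting of Xpr1, 3 fell and none rose with stimulation (median -0.04). Itpkb, an inositol trisphosphate kinase gene, went from 36.8 ± 2.03 to 25.6 ± 3.73 CPM, a fall of 0.52 ± 0.0938 (adjusted p = 0.00206). Kidins220, whose protein is a partner of XPR1, rose in MSCs against OGDR by 0.45 ± 0.0751 (adjusted p = 0.000138). It fell with stimulation by 0.26 ± 0.0749 (adjusted p = 0.0217), a call lost in 5 of 22 alternatives. Among them were those without MSCs 1, MSCs 3 or rTMS-MSCs 3 (adjusted p = 0.0859 without MSCs 3). The call was also lost with the span trend taken out, at a log2 fold change of -0.11. Ipmk, an inositol phosphate multikinase gene, fell by 0.37 ± 0.123 (adjusted p = 0.0456) and lost its call in 12 of 22 (adjusted p = 0.111 without MSCs 3).

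Of 5 tested BEN domain genes besides Bend4, 1 fell with stimulation (median -0.09). It was Nacc2, a transcriptional repressor gene, which rose in MSCs against OGDR by 0.50 ± 0.0886 (adjusted p = 0.000321) and fell with stimulation by 0.40 ± 0.0884 (adjusted p = 0.00594). Its relative Nacc1 rose in MSCs against OGDR by 0.18 ± 0.0563 (adjusted p = 0.0234), a call lost without OGDR 3, OGDR 4 or MSCs 2 (adjusted p up to 0.0919), and stood at -0.09 ± 0.0562 with stimulation (adjusted p = 0.287). Bend3, a heterochromatin protein gene, stood at 3.66 ± 0.974 and 2.61 ± 0.566 CPM (-0.49 ± 0.240, adjusted p = 0.158).

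Markers of other cell types were summed per library beside these results. The 10 stromal markers came to 343 to 363 CPM in OGDR, 368 to 396 CPM in MSCs and 271 to 355 CPM in rTMS-MSCs. Of these 10, Lum had no count and 4 stayed under 1 CPM in every library. The 11 glial and Schwann markers came to 1003 to 1082, 1185 to 1257 and 1157 to 1239 CPM, and the 14 chromaffin markers to 285 to 355, 201 to 246 and 203 to 228 CPM. The 7 macrophage markers, with Adgre1 at 0, came to 51.8 to 60.5, 51.8 to 66.8 and 63.7 to 75.1 CPM. The 5 endothelial markers in the table, with Kdr at 0, came to 88.5 to 103, 89.6 to 96.9 and 81.2 to 92.8 CPM. The stromal sums of MSCs overlapped neither other group, and the same held for the glial and the chromaffin sums of OGDR. Macrophage sums did not overlap between OGDR and rTMS-MSCs. A mean of at least 10 CPM was reached by only 3 stromal, 8 glial and Schwann, 1 chromaffin, 1 macrophage and 2 endothelial markers. Their part in the difference of the 7 genes was not tested.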

How the data were processed

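The authors deposited raw counts per gene for 30454 rat genes in 12 libraries. Per the labels' protocols, mRNA was captured with oligo(dT) beads and cDNA was primed at random. Per the submitters' processing notes, HISAT2 2.1.0, HTSeq 0.11.2, DESeq2 1.40.1 and build mRatBN7.2 were used; no source here names the strand setting. The 5 HTSeq summary lines were left out of library sizes (reads on no feature were 51.7% to 52.7% of each library). Totals were 18246250 to 20471838 counts in genes, and their size limits precision for the low members.

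In R 4.3.3, genes were kept by filterByExpr (minimum count 10, total 15), scaled by TMM and fitted with edgeR 4.0.16 (glmQLFit, glmQLFTest), with 1 mean per group over all 12 libraries. P-values are two-sided and Benjamini-Hochberg adjusted over 13692 genes (threshold 0.05). The standard error is the log2 fold change over the root of F. CPM uses TMM-scaled library sizes, and log2 CPM a prior count of 2. The fit was run on simulated data, with counts drawn independently around group means. Those data hold no shift shared by the genes of a library, such as that of MSCs 3, so they do not bear on it. Ribosomal protein transcripts are 92 genes taken by symbol. The members and lists were chosen with earlier results of these data known, and the test planned for the members in the mean of both stem cell groups is not read, since it uses the libraries that chose them. In each list the text names up to 3 called genes with the smallest p in rTMS-MSCs against MSCs, plus Spop, Ptpn3, Lmbrd1, Bend3, Ssb, Cul3 and Kidins220, and the 5 genes most like the members by Pearson r. Alternatives were 2 other scalings, DESeq2 1.42.0, limma 3.58.1 (voom with quality weights), 2 other filters, a replicate block, fewer libraries, and a trend on gene span, which was chosen after seeing the data.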

Additional observations from a re-analysis of the deposited data

Results flagged for a closer look

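In 39 groups of 4 libraries (7 genes and 6 library properties in 3 groups each), 5 had a library whose gap to its neighbour passed Dixon's critical value. Chance flags about 1 in 20 groups. Spopl in OGDR 3 stood at 11.04 CPM, above 6.26 to 6.67 CPM in the other OGDR libraries. Fam199x in MSCs 3 stood at 8.88 CPM, above 3.72 to 4.11 CPM in the rest of MSCs. Xpr1 in OGDR 1 stood at 27.7 CPM, below 32.8 to 33.5 CPM in the rest of OGDR. OGDR 4 had 19072047 counts in genes, the fewest of its group. Mitochondrial genes took 3.73% of its counts and 3.29 to 3.33% in the rest of OGDR.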

How the results depend on the processing

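The median of the 7 genes in rTMS-MSCs against MSCs ran from -1.75 to -1.32 over single libraries left out and from -1.49 to -1.25 over the other settings. Genes called in that contrast numbered 1006 to 3196 over single libraries left out, lowest without MSCs 3, and 677 without both replicates 3. The share of calls that were higher was 39.5% with all libraries, 28.0% without MSCs 3 and 22.7% without both. List genes called numbered 9 to 29 over single libraries left out, 10 without both and 14 with the span trend taken out (12.5%, beside 13.5% of all tested genes), where it was 24 with all libraries (21.4%, beside 18.1%). Members past the threshold for the mean of both stem cell groups against OGDR, which is no independent test, numbered 1 to 6 over single libraries left out. The lowest was without OGDR 3, where 1281 of 13841 tested genes were called lower. The highest was without MSCs 3, where 1805 of 13847 were. The cause of these changes was not tested. Of 2523 single-gene values under the 22 alternatives, 26 changed sign, none of them of a list gene called with all libraries. Of these, 12 were members, all in MSCs against OGDR, where 5 of the 7 changed sign in some setting. Replicate numbers did not pair the libraries, as 1 of 12 same-numbered pairs had deviations correlated above 0.1 and 1 of 12 libraries correlated best with its own number. With the replicate block 1995 genes were called in rTMS-MSCs against MSCs. For the mean of both stem cell groups against OGDR 3 members were past the threshold there, beside 1623 of 13692 tested genes called lower. A trend on coding length was not run, as no coding lengths were at hand. Counting error weighs most on Fam199x, with 11 counts in rTMS-MSCs 3.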
